A study of Mus musculus with 12 samples.

Results

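Naïve CD4 T cells of mice carrying a PP2Ac transgene were compared with cells of WT mice after 24 h of stimulation. The comparison uses 4 of the 12 arrays of the series, chosen by their titles: 2 arrays of transgenic cells and 2 of WT cells. All mice were of strain C57BL/6. Both genotypes received the same stimulus, which was soluble anti-CD3 at 0.25 ug/mL and soluble anti-CD28 at 0.5 ug/mL in wells coated with goat antibodies against hamster immunoglobulin, in RPMI with FCS. The other 8 arrays hold the same genotypes unstimulated (0 h) and after 6 h, and enter here as the starting points of the 24 h difference. One array of each pair has a title ending in Rep, called marked below, and the other is called unmarked. The labels used here name neither the promoter of the transgene nor the age of the mice, and they call the control animals WT transgenic mice in the source field but WT in the titles. They do not say whether the arrays of a pair are separate mice or cultures, so the p-values rest on a spread between arrays that may be technical only.

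PP2A is an abundant serine/threonine phosphatase. Its catalytic subunit, encoded by Ppp2ca or Ppp2cb, binds a scaffold subunit and one of many regulatory subunits that choose its substrates. In CD4 T cells it acts on signals of the T cell receptor, on the interleukin 2 gene and on the choice of helper programme. Th17 cells are CD4 cells that make interleukin 17A and 17F under the transcription factors RORgt and STAT3 and are maintained by interleukin 23. Interferons act on a separate circuit, in which a complex that includes STAT2 and IRF9 binds the interferon-stimulated response element (ISRE) in front of antiviral genes.

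Values below are normalised log2 values of 1 probe set, and a difference is transgenic minus WT on that scale, given with the standard error of the fit. That fit does not pair the arrays by the Rep mark. A level of one gene is not compared with a level of another. On the 4 arrays the lower quartile of all probe sets lay at 6.01 to 6.02, the median at 7.82 to 7.85 and the upper quartile at 10.43 to 10.45. Replicate arrays at 24 h differed by a root mean square of 0.34 in WT and 0.26 in transgenic cells. The number of arrays limits the precision. The labelled cell type was checked first. Cd4 stood at 13.64 and 13.55 in WT and at 13.63 and 13.57 in transgenic cells, and Cd3e at 13.83 and 13.78 against 13.95 and 13.87. All 8 CD4 T cell markers measured were above the upper quartile on every array, with a mean of 13.06 to 13.14 on each. Other cells were not absent by their markers: Cd79a, a part of the B cell receptor, stood at 11.84 and 11.39 in WT, and Lyz2, a lysozyme of myeloid cells, at 13.65 and 11.36.

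Of 23410 probe sets with a gene symbol, 2 rose in transgenic cells (0.00854% of those tested) and 0 fell (0.0%), by limma with a Benjamini-Hochberg adjusted p under 0.05. Both belong to Nova1. An unadjusted p under 0.05 was reached by 489 higher (2.09%) and 508 lower (2.17%) probe sets. With the Rep mark as a block, 4 rose (0.0171%), the additions being Il17f and Il23r. The transgenic arrays were both above the WT arrays in 14.5% of all probe sets and both below in 16.2%. The difference within a mark was above 0 in both marks at once in 24.4% and below 0 in both in 28.1%. Large differences that were seen in both marks were mostly on the high side. At least 0.5 in each mark was reached by 125 probe sets in the direction of transgenic cells (0.534%) and by 11 in the direction of WT (0.047%), while 78 (0.333%) differed by as much with opposite signs. At 1 log2 unit in each mark the counts were 21, 1 and 5. Without the dimmest 40% of probe sets the counts at 0.5 were 114, 5 and 64.

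**Figure D1:**
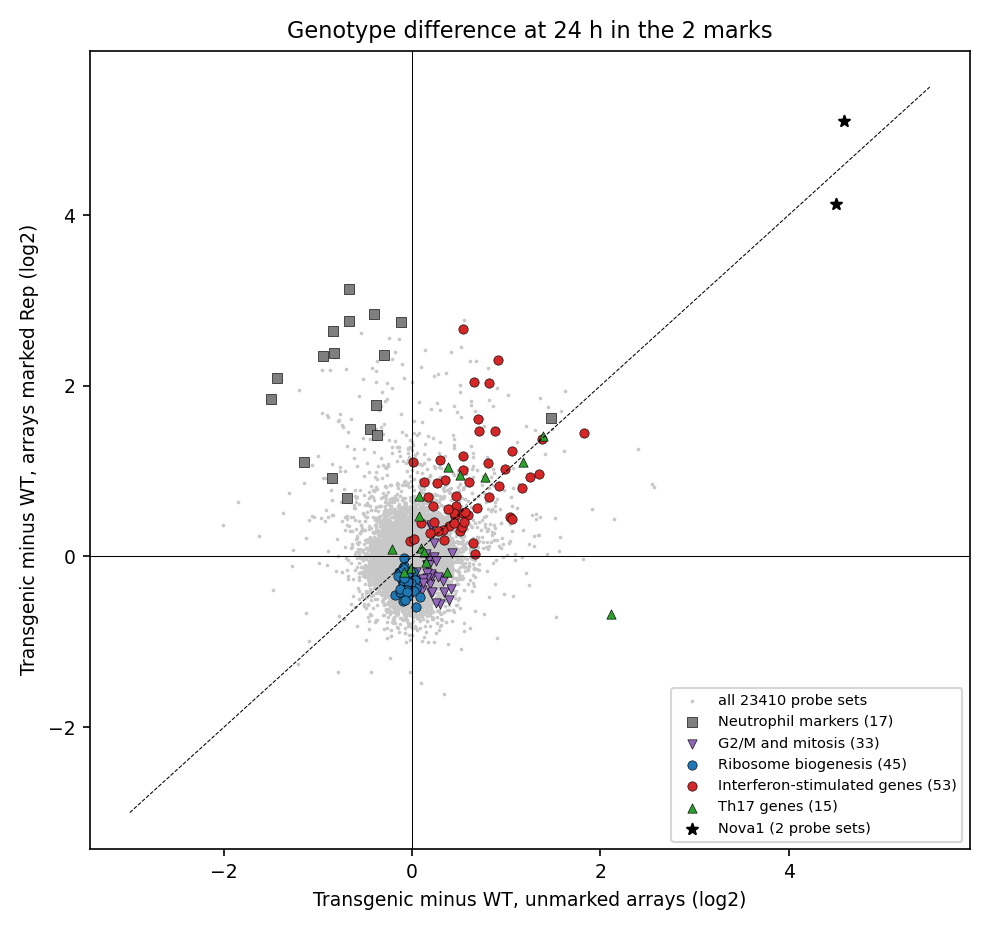
Each point is 1 of 23410 probe sets, with the transgenic minus WT difference at 24 h on the log2 scale between the unmarked arrays (horizontal) and between the arrays marked Rep (vertical); coloured symbols are genes of 5 lists and the dashed line marks equal differences. Interferon-stimulated genes lie above 0 on both axes with 1 exception, neutrophil markers lie above 0 for the arrays marked Rep and mostly below 0 for the others, and Nova1 stands alone at the upper right.

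The gene of the transgene product was higher in transgenic cells. Ppp2ca stood at 13.24 and 13.18 in WT and at 13.87 and 13.76 in transgenic cells, so the groups did not overlap. Its difference of 0.60 ± 0.08 did not pass (limma adjusted p = 0.28), although robust moderation with a trend put it past the threshold (limma adjusted p = 0.013). Ppp2cb, for the second catalytic subunit, and Ppp2r1a, for a scaffold subunit, differed by -0.03 and 0.03. Of 29 measured genes of PP2A subunits and regulators 0 passed, 3 (10.3%) were higher and 5 (17.2%) lower without overlap of the groups, near the 15.1% and 15.8% of all genes, and their median was -0.03 against -0.01 over all 19938 genes with 1 probe set each. The lower end of that list was Mid1, which encodes a ubiquitin ligase that binds the alpha4 regulator of PP2A and promotes breakdown of the catalytic subunit. It stood at 10.49 and 10.44 in WT and at 9.71 and 9.74 in transgenic cells, a difference of -0.74 ± 0.11 (limma adjusted p = 0.31, and 0.13 with the block). Mid1 is also among the genes known to vary between mouse substrains, like Nnt, a mitochondrial transhydrogenase gene with a deletion in C57BL/6J. Nnt stood at 9.84 and 9.80 in WT and at 10.31 and 10.27 in transgenic cells (0.47 ± 0.07), and Wdfy1, an endosomal adaptor gene, at 7.81 and 7.86 against 8.42 and 8.24 (0.50 ± 0.09). These differences were of one direction at 0 h and 6 h too: -0.54 and -0.95 for Mid1, 0.35 and 0.48 for Nnt, and 0.38 and 0.57 for Wdfy1.

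Nova1, a splicing regulator known mainly from neurons, had the largest difference, and had it before stimulation too. Probe set 10400155 stood at 5.30 and 5.60 in WT, below the lower quartile of the arrays, and at 9.80 and 9.72 in transgenic cells, a difference of at least 4.31 (limma adjusted p = 2.2e-05). Probe set 10400157 stood at 5.87 and 5.99 in WT and at 10.46 and 11.09 in transgenic cells, a difference of at least 4.84 (limma adjusted p = 9.6e-05). Both transgenic arrays were far above both WT arrays in either probe set. The difference of 10400155 was at least 5.8 at 0 h and 3.9 at 6 h, and that of 10400157 at least 5.5 and 4.4. The WT readings lie at the low end of the arrays, so the differences are lower bounds and are not ranked between times. The transgenic readings lie well above that end and were lower at 24 h than at 0 h. At 0 h they were 11.32 and 11.24 for 10400155, and 11.71 and 11.56 for 10400157.

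Genes of the Th17 programme were higher in transgenic cells, led by the cytokines Il17f and Il17a and the receptor Il23r. In bulk RNA, more cells of a type and more RNA per cell cannot be told apart. Il17f, for a cytokine that acts on epithelial cells and neutrophils, stood at 6.94 and 7.35 in WT and at 8.33 and 8.77 in transgenic cells. Neither array of one genotype reached the other genotype's range, and the difference was 1.40 ± 0.23. It rose with the Rep mark as a block (limma adjusted p = 0.017) but did not pass without the block (0.44). Il23r, for the receptor chain that binds interleukin 23, stood at 6.15 and 6.42 in WT and at 7.33 and 7.53 in transgenic cells. Its difference of 1.14 ± 0.16 likewise passed with the block alone (limma adjusted p = 0.032, and 0.31 without). Il17a, the founding cytokine of the family, stood at 6.88 on both WT arrays and at 7.66 and 7.81 on the transgenic ones. That is 0.85 ± 0.13, past the threshold in neither fit (limma adjusted p = 0.31 and 0.14). The WT values of all 3 genes lay between the lower quartile and the median of the arrays. When 1 array at 24 h was left out, Il17f ran from 1.18 to 1.62, Il23r from 1.01 to 1.28 and Il17a from 0.78 to 0.93.

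The chemokine and the receptor that guide Th17 cells differed by less. Ccl20 stood at 6.68 and 6.51 in WT and at 7.07 and 7.57 in transgenic cells (0.72 ± 0.16), and its receptor Ccr6 at 7.98 and 7.26 against 8.49 and 8.21 (0.73 ± 0.23). Neither pair of groups overlapped, and neither gene passed. Il21, a cytokine of Th17 and follicular helper cells, stood at 7.02 and 7.67 in WT and at 9.14 and 7.0 in transgenic cells, so that 1 transgenic array was the highest and the other the lowest of the 4. The gene lists of this report were chosen with earlier results of these data known, so their shares are descriptions and not tests. Of 15 measured Th17 genes, 8 were higher without overlap (15.1% of all genes were) and 0 lower, and 9 were higher in both marks (25.0% of all genes). Their median was 0.28, at 0.15 between the unmarked and 0.09 between the marked arrays. The upstream regulators differed little: Stat3 by 0.09 ± 0.08, Rora by 0.28 ± 0.26, Batf by -0.07 ± 0.15 and Irf4, which T cell receptor signals induce, by -0.13 ± 0.18. Without the dimmest 40% of probe sets the median was 0.10. Leaving out 1 array moved it between 0.10 and 0.30, with 0.10 without the marked transgenic array and 0.18 without the unmarked one.

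Promoter sequences of these genes are shown because 5 of the 12 Th17 genes with a RefSeq promoter (41.7%) hold AGGTCA, the element that ROR and other nuclear receptors bind, on either strand of the window from 250 bases before to 50 bases after the start site. Among all 27025 genes of the promoter table, 18.1% do. Each stretch is on the strand of its gene, 5′ to 3′, with AGGTCA or its reverse complement in capitals, on RefSeq build GRCm38.p6.
Il17a (chr1:20730765-20730810, plus strand): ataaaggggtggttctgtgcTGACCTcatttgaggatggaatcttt
Il17f (chr1:20784303-20784348, minus strand): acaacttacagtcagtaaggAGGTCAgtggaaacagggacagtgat
Il23r (chr6:67491896-67491941, minus strand): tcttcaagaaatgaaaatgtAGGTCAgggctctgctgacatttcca
Ccr6 (chr17:8235979-8236024, plus strand): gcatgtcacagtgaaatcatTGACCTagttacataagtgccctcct
Ccl20 (chr1:83116572-83116617, plus strand): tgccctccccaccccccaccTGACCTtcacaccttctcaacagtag
With Il21, these 5 genes had the 6 largest differences of the list. A match of 6 letters is frequent and is a description of the window, not of binding.

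**Figure D2:**
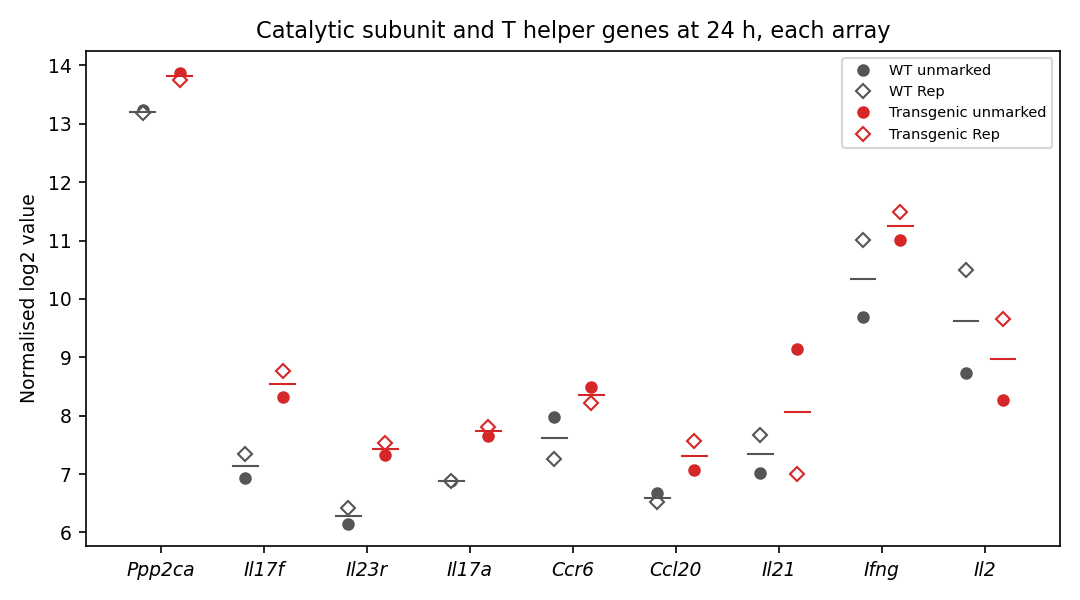
Normalised log2 values at 24 h of Ppp2ca and 8 T helper genes on each of the 4 arrays, grey for WT and red for transgenic cells, filled circles for unmarked arrays and open diamonds for arrays marked Rep, with bars at the group means. The groups do not overlap for Ppp2ca, Il17f, Il23r, Il17a, Ccr6, Ccl20 and Ifng, whereas the 2 transgenic values of Il21 enclose both WT values and Il2 overlaps.

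Interferon-stimulated genes were higher in transgenic cells as a group, and in both marks. Of 53 measured, 53 had a positive difference, 52 were higher in both marks (25.0% of all genes were) and 49 were higher without overlap (15.1% of all genes). This list too was chosen with earlier results of these data known, so the shares describe it and do not test it. No member passed the threshold, while 23 reached an unadjusted p under 0.05, against 2.2% of all genes on the high side and 2.07% on the low side. The median was 0.56, at 0.54 between the unmarked and 0.69 between the marked arrays, and it stayed between 0.54 and 0.71 when 1 array at 24 h was left out. Without the marked transgenic array 52 were positive, and without any other single array all 53.

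Transcription factors and sensors of the circuit were higher in both marks. Stat2, which acts downstream of the type I receptor, stood at 10.78 and 11.11 in WT and at 11.59 and 11.80 in transgenic cells (0.75 ± 0.15). Irf7, the factor that amplifies interferon production, stood at 11.02 and 10.32 against 11.89 and 11.79 (1.17 ± 0.34). Both transgenic arrays exceeded both WT arrays in each. Irf9, the DNA-binding partner of STAT2, differed by 0.24 ± 0.12. The RNA sensors Ifih1 and Ddx58, which encode MDA5 and RIG-I, differed by 0.71 ± 0.33 and 0.62 ± 0.34, and Dhx58, their relative LGP2, by 1.15 ± 0.46. Xaf1, an interferon-induced gene of cell death, was tight within each group, at 9.02 and 9.09 in WT and 10.00 and 10.11 in transgenic cells (1.0 ± 0.20).

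Antiviral effectors had differences of similar size. Ifi205, of the interferon-inducible p200 family, stood at 8.27 and 7.85 in WT and at 10.10 and 9.29 in transgenic cells (1.64 ± 0.42, the highest of the list). Rtp4, a transporter protein gene, stood at 9.50 and 8.61 against 10.32 and 10.64 (1.42 ± 0.42). Oas3, an oligoadenylate synthetase that activates RNase L, stood at 9.18 and 9.11 against 10.53 and 10.07 (1.16 ± 0.58). Rsad2, for viperin, stood at 8.86 and 8.21 against 10.24 and 9.59 (1.38 ± 1.07), and Ifit3 at 9.79 and 9.08 against 10.45 and 11.12 (1.35 ± 0.78). The arrays did not overlap for any of these 5 genes; the standard errors draw on the spread at all 3 times. Usp18, a negative regulator of the interferon receptor, stood at 11.01 on both WT arrays and at 12.18 and 11.80 in transgenic cells (0.98 ± 0.39). In some members the marked WT array was by far the lowest. Ifitm3, a membrane protein that blocks viral entry, stood at 11.41 and 8.54 in WT and at 11.95 and 11.20 in transgenic cells and overlapped, and Oasl2 at 10.67 and 8.94 against 11.58 and 11.24. At the low end of the list were the membrane genes Ms4a6b (0.11 ± 0.09) and Ms4a4b (0.08 ± 0.15).

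**Figure D3:**
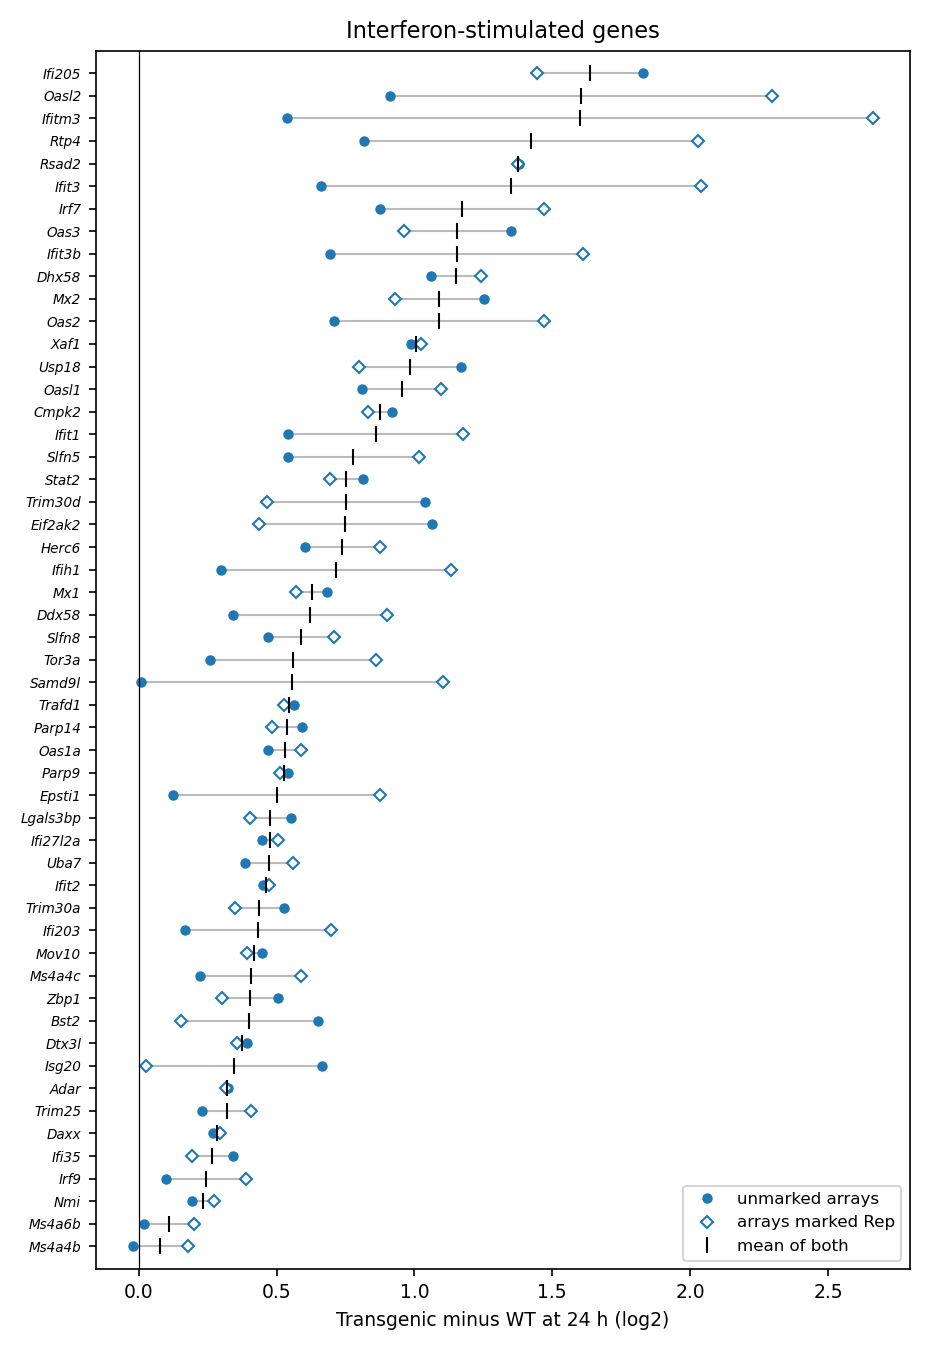
The 53 interferon-stimulated genes, one per line, with the transgenic minus WT difference at 24 h on the log2 scale between the unmarked arrays (filled circles), between the arrays marked Rep (open diamonds) and over both (black ticks). Every tick lies above 0, from 0.08 for Ms4a4b to 1.64 for Ifi205, and 1 circle, that of Ms4a4b, lies below 0.

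The ISRE core, spelled GAAA, any 2 bases, GAAA, was found on either strand of the promoter window of 18 of the 42 interferon-stimulated genes with a promoter entry (42.9%), against 3.99% of all 27025 genes. The GAS element TTCNNNGAA, bound by STAT dimers, was in 8 of the 42 (19.0%, against 9.55% of all genes), and 4 of these hold both. None of the 12 Th17 promoters held the ISRE core. With 3.99% of all genes holding it, 12 promoters are too few to set that list apart. Interferon-stimulated genes are known for this element, so their share describes the choice of list and not the arrays. The stretches below carry the core or its reverse complement in capitals, on the strand of the gene in GRCm38.p6, for some of the members with differences given above and for Cxcl10 and Gbp7 described next. Ifih1, Ddx58, Ifit1 and Ifitm3 also hold the core and are not shown.
Ifi205 (chr1:174031860-174031909, minus strand): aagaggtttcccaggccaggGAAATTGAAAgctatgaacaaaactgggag
Oas3 (chr5:120777705-120777754, minus strand): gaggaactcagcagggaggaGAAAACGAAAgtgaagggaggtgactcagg
Rsad2 (chr12:26456543-26456592, minus strand): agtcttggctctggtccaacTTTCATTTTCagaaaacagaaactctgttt
Stat2 (chr10:128270256-128270305, plus strand): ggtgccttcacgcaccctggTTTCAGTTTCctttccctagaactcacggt
Ifit3 (chr19:34583387-34583436, plus strand): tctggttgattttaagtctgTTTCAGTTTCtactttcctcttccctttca
Gbp7 (chr3:142530263-142530312, plus strand): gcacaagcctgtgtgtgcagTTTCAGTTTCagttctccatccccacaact
Cxcl10 (chr5:92349073-92349122, minus strand): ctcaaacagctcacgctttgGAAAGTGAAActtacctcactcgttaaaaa
The Ifit3 stretch is identical in Ifit3b, a near copy whose signal (1.15 ± 0.96, with both WT readings below the lower quartile) cannot be separated from that of Ifit3 with certainty. The same holds for Trim30a and Trim30d, which share theirs.

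The interferon-inducible GTPases, which coat vacuoles of intracellular pathogens and respond mainly to interferon gamma, were higher in 9 of 9 genes and in both marks. Their median was 0.53, at 0.75 between the unmarked and 0.34 between the marked arrays, with 4 of 9 (44.4%) free of overlap, against 15.1% of all genes. Gbp7 stood at 11.23 and 11.73 in WT and at 11.99 and 12.19 in transgenic cells (0.61 ± 0.23), Gbp3 at 9.39 and 10.08 against 10.22 and 10.46 (0.60 ± 0.25), and Iigp1 at 9.62 and 11.21 against 10.91 and 11.44 (0.76 ± 0.67). All 9 stood higher on the marked array within each genotype, so the unmarked WT array was the lowest of the 4. Without that array the median was 0.10 and 7 of 9 were positive, and without the marked WT array it was 0.87. All 4 members with a promoter entry hold the ISRE core, which likewise describes the choice of list and not the arrays.

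Of 32 cytokine and chemokine genes, the interferon-induced chemokines Cxcl10 and Cxcl9 had the largest differences, and 8 genes (25.0%) were higher and 0 lower without overlap, against 15.1% and 15.8% of all genes. Cxcl10 stood at 9.33 and 9.87 in WT and at 11.73 and 11.13 in transgenic cells (1.83 ± 0.66), Cxcl9 at 8.41 and 9.78 against 10.97 and 10.60 (1.69 ± 0.49), and Cxcl11 at 5.93 and 6.16 against 6.67 and 6.38 (0.49 ± 0.31). They attract cells with the receptor CXCR3, and each was free of overlap, but leaving out 1 array moved Cxcl9 between 1.0 and 2.38. Ifng, for interferon gamma, stood at 9.69 and 11 in WT and at 11.01 and 11.49 in transgenic cells (0.91 ± 0.42), where the lowest transgenic value barely exceeded the highest WT value, and leaving out 1 array gave 0.25 to 1.56. Ifnb1, for interferon beta, stood at 5.24 to 5.32 on all 4 arrays, below the lower quartile. Of 19 receptors, sensors and regulators of interferon production the median was 0.14. Tlr7 and Tlr9, endosomal sensors of RNA and DNA, had the largest differences among them: Tlr7 at 8.83 and 8.78 against 9.79 on both transgenic arrays (0.99 ± 0.23), and Tlr9 at 9.57 and 9.41 against 10.12 and 10.23 (0.68 ± 0.14). Ifnar1, Ifngr2 and Myd88 differed by 0.14, 0.06 and 0.07.

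Markers of cells other than CD4 T cells were higher beside these groups, and their part in the differences was not tested. NK cell markers were positive in 10 of 10 (median 0.70, at 0.75 and 0.48 in the marks), among them Gzma at 7.85 and 8.45 in WT against 9.99 and 8.89 in transgenic cells (1.29 ± 0.46) and Ncr1, which defines the type, at 6.78 and 7.46 against 7.69 and 8.14 (0.79 ± 0.51). Their summed level, as a mean over the list, was 7.57 and 7.40 in WT and 8.31 and 7.88 in transgenic cells, and Klre1 was below the lower quartile on all 4 arrays. Dendritic cell markers had a mean of 9.17 and 9.22 against 9.29 and 9.59, with 14 of 17 positive, 8 higher in both marks, medians of -0.01 and 0.49 in the marks, and Clec9a below the lower quartile throughout. Itgax, for CD11c, stood at 7.31 and 7.03 against 7.78 and 7.76 (0.60 ± 0.13), and Cd86, a ligand of CD28, at 8.59 and 8.82 against 9.19 and 9.31 (0.55 ± 0.12). Ccl17, a chemokine of dendritic cells, was lower in both marks, at 8.46 and 9.51 against 8.19 and 9.42 (-0.18 ± 0.44). B cell markers were positive in 10 of 11 (median 0.36, at 0.16 and 0.48), with Cd22 at 10.10 and 9.28 against 10.85 and 10.23. Plasma cell markers had a median of 0.44 and were positive in 6 of 7. Cd8a, of CD8 T cells, stood at 9.38 and 9.11 against 10.56 and 9.43, and Cd8b1 at 11.16 and 10.64 against 11.48 and 10.93.

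In myeloid markers the marked WT array stood apart from the other 3. The 17 neutrophil markers had a mean of 10.94 and 7.81 in WT and 10.34 and 9.82 in transgenic cells. Ngp, a neutrophil granule protein gene, stood at 13.07 and 8.98 in WT and at 12.40 and 12.12 in transgenic cells, and S100a8, for a calprotectin subunit, at 11.94 and 8.29 against 11.54 and 11.14. The marked WT array was the lowest of the 4 in all 17 genes. The median difference of the list was -0.67 between the unmarked and 2.09 between the marked arrays, and 17 of 17 were lower on the marked than on the unmarked WT array. Monocyte and macrophage markers behaved alike in direction, with medians of -0.26 and 1.28 and a mean of 9.55 and 8.10 in WT against 9.35 and 9.32. Between the marked arrays at 0 h and 6 h the neutrophil median was 2.42 and 2.09. Mast cell and basophil markers had medians of 0.05 and 0.61 in the marks. Erythroid markers had a median of 0.02, with Kel, Epb42 and Cldn13 below the lower quartile on all 4 arrays, and platelet markers one of -0.01.

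Of the other helper programmes, Th1 genes were higher in transgenic cells and Th2 genes differed little. Th1 genes were positive in 13 of 13 with a median of 0.36, at 0.21 between the unmarked and 0.42 between the marked arrays, and 4 (30.8%) were higher without overlap, against 15.1% of all genes. Prf1, for perforin, stood at 8.87 and 8.33 in WT and at 9.92 and 9.03 in transgenic cells (0.88 ± 0.29), and is also a member of the NK cell marker list. Ccl5, a chemokine of memory cells, stood at 12.07 and 11.58 against 12.25 and 12.47 (0.54 ± 0.15). Tbx21, for the Th1 master regulator T-bet, stood at 11.65 and 12.53 against 12.33 and 12.38 and overlapped. Without the marked WT array the median was 0.14 and 9 were positive. Th2 genes had a median of 0.02, with Il4 at 7.95 and 8.16 against 7.81 and 7.95 (-0.18 ± 0.11) and Il13 at 0.32 ± 0.24. Regulatory T cell genes had a median of 0.11, and Foxp3 stood at 10.20 and 9.43 against 10.20 and 9.79. Il10, an inhibitory cytokine, stood at 7.08 and 8.28 against 8.37 and 8.40 (0.71 ± 0.34). Cxcr6, a receptor of tissue-resident T cells, was free of overlap at 8.76 and 8.39 against 9.13 and 9.31 (0.65 ± 0.12, limma adjusted p = 0.86). Antigen-experienced T cell genes were positive in 23 of 25, with a median of 0.18 that was -0.05 without the marked WT array.

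Early response genes of the T cell receptor had small differences of both signs, more of them negative. Of 30 early response genes 10 were positive, and the median was -0.09. Spry1, an inhibitor of the RAS to ERK pathway, stood at 10.19 and 10.36 in WT and at 9.72 and 9.79 in transgenic cells (-0.52 ± 0.17), and Jun, a part of AP-1, at 9.61 and 10.40 against 10.66 and 10.70 (0.68 ± 0.24). Il2 stood at 8.73 and 10.50 in WT and at 8.27 and 9.66 in transgenic cells (-0.65 ± 0.55), lower in transgenic cells within each mark and higher on the marked array within each genotype, so that the groups overlapped. Il2ra, for the receptor chain that activation induces, differed by -0.01 ± 0.33, Ctla4 by 0.13 ± 0.15 and Pdcd1 by -0.24 ± 0.21. Socs3, a feedback inhibitor of cytokine receptors, stood at 10.73 and 10.57 against 11.09 on both transgenic arrays (0.43 ± 0.17). All 8 GIMAP genes, which encode small GTPases of lymphocyte survival, had positive differences of 0.06 to 0.22 (median 0.15, at 0.16 and 0.15 in the marks), and 5 (62.5%) were free of overlap, against 15.1% of all genes.

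On the low side, most genes of ribosome biogenesis, nucleotide synthesis and sterol synthesis read slightly lower in transgenic cells. Of 45 ribosome biogenesis genes 0 were positive, 37 were lower in both marks (27.2% of all genes were) and 28 were lower without overlap (15.8% of all genes). None passed and 1 reached an unadjusted p under 0.05. The median was -0.20, at -0.06 between the unmarked and -0.32 between the marked arrays. Wdr12, of the complex that matures the large subunit RNA, stood at 10.86 and 11.16 in WT and at 10.77 and 10.64 in transgenic cells (-0.31 ± 0.11), and Polr1b, a subunit of RNA polymerase I, at 12.15 and 12.47 against 12.05 on both transgenic arrays (-0.26 ± 0.13). All 45 were higher on the marked than on the unmarked WT array, by a median of 0.25, and without the marked WT array the median difference was -0.06 with 6 positive. Nucleotide synthesis genes had a median of -0.19, at -0.02 between the unmarked and -0.31 between the marked arrays, and without any 1 array it lay between -0.24 and -0.09. Of these 21 genes 3 were positive and 11 (52.4%) were lower without overlap, against 15.8% of all genes. Umps, for the last steps of uridine synthesis, stood at 11.24 and 11.25 in WT and at 11.10 and 10.75 in transgenic cells (-0.32 ± 0.11), and Shmt1, a one-carbon enzyme, at 10.68 and 10.72 against 10.49 and 10.11 (-0.40 ± 0.14). The median of sterol synthesis and uptake genes was -0.13, and 1 of 20 was positive and 7 (35.0%) lower without overlap, against 15.8% of all genes. Sqle, for squalene epoxidase, stood at 11.12 and 11.35 against 10.89 and 10.97 (-0.31 ± 0.13). The sterol median was -0.03 without the marked WT array.

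Mitosis genes and amino acid stress genes differed between the marks by more than between the genotypes. All 33 mitosis genes were lower on the marked array in both genotypes, with medians of -1.43 in WT and -1.90 in transgenic cells (marked minus unmarked). Plk1, for a mitotic kinase, stood at 12.13 and 9.90 in WT and at 12.31 and 9.87 in transgenic cells, and Ccnb2, for cyclin B2, at 12.10 and 9.79 against 12.30 and 10.13. Their median genotype difference was 0.20 in the unmarked and -0.25 in the marked arrays. The 43 genes of G1/S and DNA replication had medians of 0.03 and -0.28, with 40 negative and 18 (41.9%) lower in both marks, against 27.2% of all genes. ATF4 targets, which respond to amino acid shortage, went the other way: 29 of 31 genes of that list were higher on the marked array in both genotypes. By genotype 27 of the 31 were negative and 13 (41.9%) lower in both marks, with a median of -0.13. Asns, for asparagine synthetase, stood at 9.36 and 12.46 in WT and at 9.75 and 11.94 in transgenic cells, and Chac1, for a glutathione-degrading enzyme, at 8.15 and 11.40 against 8.33 and 10.76. One member, Slc7a11, for the cystine transporter, was higher in both transgenic arrays, at 9.73 and 9.13 against 10.36 and 10.90 (1.2 ± 0.57).

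Other genes had large differences in both marks with no overlap of the groups. The rule by which they were named, with an unadjusted p under 0.05, was met by 94 probe sets on the high side, Nova1 and Il17f included, and by 24 on the low side. None of the genes given next passed. Ptgs2, for the inducible cyclooxygenase, stood at 8.38 and 9.37 in WT and at 10.92 and 10.22 in transgenic cells (1.70 ± 0.56). Cfb, for complement factor B, stood at 8.74 and 8.70 against 10.32 and 10.40 (1.64 ± 0.45). Il1a, for interleukin 1 alpha, stood at 7.26 and 7.60 against 8.88 and 8.84 (1.43 ± 0.61). Tgm2, a transglutaminase gene, differed by 1.49 ± 0.57, Hcar2, a receptor for niacin and ketone bodies, by 1.61 ± 0.67, Smpdl3b, a sphingomyelinase-like gene, by 1.37 ± 0.56, and Slamf8, a SLAM receptor of myeloid cells, by 1.18 ± 0.28. On the low side were Fgf2, for a fibroblast growth factor, at 8.28 and 7.59 against 7.16 and 6.93 (-0.89 ± 0.32), Tmem267 (-0.93 ± 0.33), Dip2c (-0.70 ± 0.18), Tanc2 (-0.56 ± 0.13), Adarb1, for an RNA-editing deaminase (-0.50 ± 0.11), Id3, an inhibitor of E proteins (-0.49 ± 0.18), and Angptl4, for a lipase inhibitor (-0.40 ± 0.09). Outside that rule, Akr1c12, an aldo-keto reductase gene with values below the array median, stood at 6.91 and 7.48 in WT and at 5.81 and 6.49 in transgenic cells (-1.05 ± 0.22), and its neighbour in the family Akr1c18 at 9.29 and 10.84 against 8.08 and 9.57 (-1.24 ± 0.61), where the groups overlapped. These aldo-keto reductases are close paralogues, so their signals may not be separate.

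Whether the genotype difference was larger at 24 h than before was tested as an interaction. By limma with Benjamini-Hochberg adjustment, 0 of 23410 probe sets passed against 0 h or against 6 h (0.0% in either direction), while an unadjusted p under 0.05 was reached by 333 higher (1.42%) and 291 lower (1.24%) against 0 h and by 238 higher (1.02%) and 248 lower (1.06%) against 6 h. The genotype difference of Il17a was -0.23 at 0 h, 0.89 at 6 h and 0.85 at 24 h. That of Il17f was 0.01, 1.63 and 1.40, that of Il23r 0.45, 0.44 and 1.14, and that of Ccl20 -0.12, 0.37 and 0.72. The change of Il17a from 0 h to 24 h was 1.08 ± 0.18 and that of Il17f 1.40 ± 0.32. These comparisons share their 24 h arrays. Interferon-stimulated genes had medians of 0.24 at 0 h, 0.47 at 6 h and 0.56 at 24 h, with 39, 26 and 52 of 53 higher in both marks. Of all 19938 genes, 4261 were so at 0 h, 4205 at 6 h and 25.0% at 24 h. The 6 h median of the interferon-stimulated genes was 0.01 between the unmarked and 0.96 between the marked arrays. The difference at 24 h exceeded that at 0 h in 50 of the 53 and in 10648 of all 19938 genes. Among the 50 was Stat2 (0.06 at 0 h), and Cfb outside the list was at 0.06 too. The exceptions were Ifit1 (0.88 at 0 h and 0.86 at 24 h), Isg20 (0.41 and 0.35) and Ifit3b, and Rsad2 was close, at 1.34 and 1.38. The GTPases stood at 0.04, 0.17 and 0.53, and ribosome biogenesis genes at -0.04, -0.04 and -0.20. Spry1 was at 0.27 at 0 h and -0.52 at 24 h, Akr1c12 at -0.07 and -1.05, and Fgf2 at -0.01 and -0.89.

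**Figure D4:**
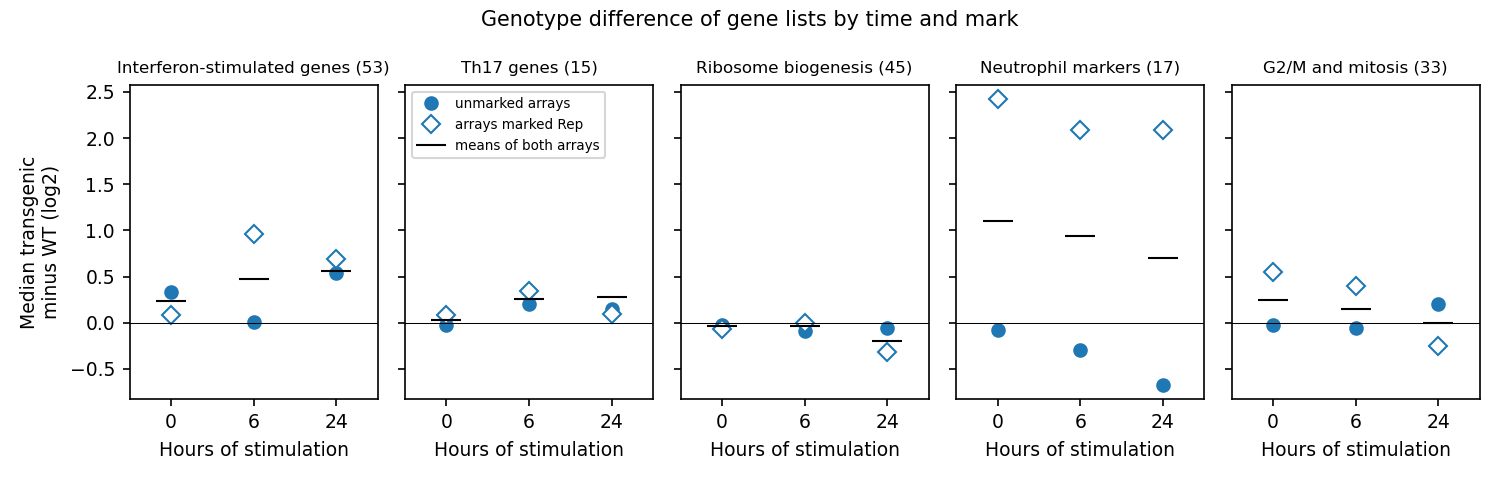
Median transgenic minus WT difference on the log2 scale of 5 gene lists after 0, 6 and 24 h of stimulation, between the unmarked arrays (filled circles), between the arrays marked Rep (open diamonds) and over both (black bars), with the number of genes in each panel title. Interferon-stimulated genes are above 0 in both marks at 24 h (0.54 and 0.69), and neutrophil markers are split by mark at all 3 times.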

How the data were processed

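Each of the 28853 probe sets has a deposited log2 value on every array (3.49 to 15.38 over the table, array medians 7.39 to 7.50). The method by which the authors obtained these log2 values, normalisation included, is not given in the sources used. Per the labels' protocols, RNA came from TRIZOL followed by Qiagen columns, and the cDNA carried biotin. A single gene symbol was held by 21789 probe sets, several by 1621 and none by 5443, and 105 Entrez numbers absent from the RefSeq table kept the array annotation's symbol. After quantile normalisation, the 23410 probe sets with a symbol were fitted in limma 3.58.1 (R 4.3.3) on all 12 arrays with 6 group means, which pools the spread (6 residual and 3.05 prior degrees of freedom), with Benjamini-Hochberg adjustment within each comparison. A list gene is represented by its brightest probe set with a single symbol. Of 982 entries in 45 lists 903 were measured, and of 44 list genes with more than 1 probe set 9 had opposite signs. Members, lists and rules were chosen with earlier results of these data known.

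Named genes are those past the threshold with or without the block, and the 15 largest differences in each direction with an unadjusted p under 0.05, at least 0.3 in both marks, no overlap and a higher mean above the array median, without predicted genes, receptor segments and small RNAs. Also named are up to 5 members per list by p, up to 5 per interaction, and a chosen set of PP2A and T cell genes. Not all of these are printed, and further list members were added after their values were seen.

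Deviations of arrays with the same mark correlated in all 15 pairs of groups (0.138 to 0.591). The correlation between the genotypes at 24 h was 0.458, so the mark pairs the arrays. Counts and standard errors are nevertheless those of the fit without the mark, and the fit with it as a block is given where it changes a call. With the block the standard error was 0.12 in place of 0.23 for Il17f and 0.09 in place of 0.23 for Gbp7. For Nova1 10400155 it was 0.17 in both fits. The other settings tried were no normalisation, median centring, removal of dim probe sets, all rows, a single probe set per gene, robust moderation with a trend, array weights, a 1.2-fold minimum, the 24 h arrays alone and left-out arrays. The test without the block was run on simulated data with 200 changed probe sets and independent noise on each array. The simulation lacked the variation that arrays of the same mark share, so it does not check the test in that respect. Tables and plots were made in Python 3.11.15 (pandas 2.3.3, numpy 2.4.6) with matplotlib 3.10.9.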

Additional observations from a re-analysis of the deposited data

Results flagged for a closer look

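In 3 lists, median differences had opposite signs in the marks at 24 h, each mark holding 1 array per genotype, so the contrast between marks was not tested. Neutrophil markers read -0.67 between the unmarked and 2.09 between the marked arrays, monocyte and macrophage markers -0.26 and 1.28, and mitosis genes 0.20 and -0.25. Over both marks none of their members passed. No group has enough arrays for a test of a single array standing apart.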

How the results depend on the processing

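Of the settings tried, the number of probe sets past the threshold at 24 h was 2 except as follows. It was 1 with 1 probe set per gene, 1 with the 4 arrays at 24 h alone, 4 with the mark Rep as a replicate block, 3 with robust moderation, and 5 without the 3 WT arrays marked Rep, which added Cxcl9 (2.38), Fn1 (-1.98) and F13a1 (-1.94). Leaving out 1 array at 24 h gave 2 to 6, with 6 without the marked transgenic array, where Nos2, Cysltr2, Pltp and Ido1 passed. Without either WT array at 6 h Xaf1 passed (limma adjusted p = 0.041). The interaction counts were 0 in every setting run.

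The Th17 median of 0.28 was 0.24 with median centring, 0.10 without the dimmest 40% and 0.33 without genes of more than 1 list. Leaving out 1 array at 24 h gave 0.10 to 0.30 for Th17 genes, 0.54 to 0.71 for interferon-stimulated genes, 0.10 to 0.87 for interferon-inducible GTPases and -0.27 to -0.03 for sterol genes. It turned the sign for IL-2 and STAT5 targets (-0.05 to 0.20), antigen-experienced genes (-0.05 to 0.43) and CDK inhibitors and p53 targets (-0.15 to 0.08). The widest such ranges were those of neutrophil markers (-0.89 to 2.35), mitosis genes (-0.94 to 0.93), monocyte markers (-0.23 to 1.26), mast cell markers (-0.07 to 0.75), ATF4 targets (-0.47 to 0.24) and G1/S genes (-0.43 to 0.14), and the medians of Th2, fatty acid, glycolysis, aldo-keto reductase, chaperone and platelet genes, all near 0, turned too. Substrain genes turned from 0.07 to -0.11 without the dimmest 40% and to -0.11 without genes of more than 1 list, and Cd68 from 0.57 to -0.18 without the 3 marked WT arrays. The cause of these shifts was not tested. An arm left with 1 array is assumed to vary like the other groups. The replicate block brought Il17f and Il23r past the threshold and changed no other call among 242 named probe sets.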
